A study of Mus musculus with 4 samples.

Results

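The 45 genes described here drive the cell cycle and DNA replication, and they were taken by name from the deposited exon read tables, where a gene had to carry an exon length. All 45 of 45 were found, among 28032 features with an exon length of 37583 features in all. By role they were 5 cyclins of G1 and S phase, 2 transcription factors, 10 licensing and replication fork genes, 4 nucleotide supply genes, 14 mitotic kinases, B-type cyclins, checkpoint and ubiquitin ligase genes, and 10 genes of the spindle, kinetochore and mitotic chromosomes. The licensing, fork and nucleotide genes are called replication genes below (14), and the last pair of roles mitosis genes (24). All 45 genes passed the filter on low counts, but Plk1, Ttk and Gins2 reached its level of 1.93 CPM (read counts scaled to a common library size) in only 2 libraries.

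RNA was sequenced from CD4+Foxp3+ regulatory T cells (Tregs), the lineage that restrains immune responses, sorted by FACS from C57BL/6 mice aged 8 weeks. Mice were WT or carried the label Csnk2b-/-, and the latter are called Csnk2b-deficient below. Csnk2b encodes the beta subunit that regulates the kinase CK2. Its mRNA was lower but still present in the Csnk2b-deficient libraries, with the reads given below. Replicate 1 of each genotype was spleen and replicate 2 was tracheal lymph nodes, so each genotype and tissue had 1 library. The labels name neither the driver of the deletion nor whether a library came from 1 animal or a pool. The p-values below do not measure a spread between replicates of the same genotype and tissue, as there were none. They rest on 1 residual degree of freedom, which is how far the genotype difference disagreed between the tissues. To this the fit adds a median of 10.1 prior degrees of freedom drawn from all genes. A pair of RNA extraction and library kits was used; if the protocol's numbering follows the listing order, kit and tissue coincide, and they then cannot be told apart.

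Exon reads per library ran from 4737814 to 6750695. Csnk2b itself had 649 reads in WT spleen, 148 in Csnk2b-deficient spleen, 667 in WT lymph node and 283 in Csnk2b-deficient lymph node, lower in each Csnk2b-deficient library (log2 fold change -1.54 ± 0.26 SE, adjusted p = 0.0658 by edgeR's quasi-likelihood test). All 9 Treg and CD4 T cell markers had reads in every library, but Foxp3, the defining factor of the sort, fell by 1.66 ± 0.25 on the log2 scale (adjusted p = 0.0375, same edgeR test). WT lymph node stood apart: 5.27% of the genes tested had no read there, against 0.153% to 0.621% in the other libraries, and 6 of the 45 genes had none. Markers of other cells also differed in lymph node. The 6 monocyte and macrophage markers summed to 39.9 CPM in WT and 258 CPM in Csnk2b-deficient lymph node (16.3 and 12.5 CPM in spleen), with 4 of them at 0 in WT lymph node. Lyz2 alone gave 1291 reads in Csnk2b-deficient and 187 in WT lymph node. The 3 plasma cell markers were all at 0 in WT lymph node and summed to 30 CPM in its Csnk2b-deficient counterpart, where 164 reads were Igj, 1 was Sdc1 and Tnfrsf17 had 0. The 6 B cell markers summed to 145 CPM in WT and 96.3 CPM in Csnk2b-deficient lymph node, most of it Cd79b (599 and 412 reads). The 8 erythroid markers went the other way, from 60.8 to 5.99 CPM, and all 4 neutrophil markers were at 0 throughout. These marker CPM are relative to total exon reads, without the TMM scaling used for the 45 genes. The part of these cells in the lymph node values below was not tested. In sorted bulk RNA, fewer cells of a type and less RNA per cell cannot be told apart.

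Cells leave quiescence when D-type cyclins and then cyclin E release E2F factors, which switch on genes for licensing origins, copying DNA and making deoxynucleotides. The MCM proteins form the helicase that unwinds DNA ahead of the fork. Genes for entering and completing mitosis are expressed later, under B-MYB and FOXM1, and in resting cells the DREAM complex represses them through the cell cycle homology region (CHR) of their promoters, usually near CCAAT boxes bound by NF-Y. Tregs divide more than other CD4 T cells in the steady state, and an mRNA level in a sorted pool mixes cycling with resting cells.

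Promoters of the mitosis and replication genes differ in the CHR and E2F matches given below, while the CCAAT box is frequent in both. So 4 mitosis and 4 replication promoters are shown. Each is the 150 bases just before the gene's start in RefSeq, build GRCm38.p6, 5′ to 3′ on the gene's strand. Capitals mark matches to the CHR (TTTGAA or TTCGAA), the CCAAT box (CCAAT) or an E2F motif, searched as TTTCGCG and, in other forms, as TTTGGCG and as the form TTTCCCG, on either strand. These genes were chosen after their promoters had been searched.
Mki67, chr7:135716380-135716529, minus strand: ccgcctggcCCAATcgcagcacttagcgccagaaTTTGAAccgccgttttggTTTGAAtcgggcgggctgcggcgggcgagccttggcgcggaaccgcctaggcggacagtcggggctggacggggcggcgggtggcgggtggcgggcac
Top2a, chr11:99024190-99024339, minus strand: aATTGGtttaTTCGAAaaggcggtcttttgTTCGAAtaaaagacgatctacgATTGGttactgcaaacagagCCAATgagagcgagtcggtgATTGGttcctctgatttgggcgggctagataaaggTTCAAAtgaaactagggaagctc
Cdk1, chr10:69352913-69353062, minus strand: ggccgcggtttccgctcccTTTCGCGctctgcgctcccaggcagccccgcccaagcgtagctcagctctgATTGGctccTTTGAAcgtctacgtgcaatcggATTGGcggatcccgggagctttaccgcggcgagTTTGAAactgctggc
Kif11, chr19:37376232-37376381, plus strand: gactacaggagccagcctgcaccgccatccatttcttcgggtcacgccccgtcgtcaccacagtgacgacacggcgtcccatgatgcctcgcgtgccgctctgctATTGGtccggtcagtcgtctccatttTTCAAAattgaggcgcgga
Mcm6, chr1:128359706-128359855, minus strand: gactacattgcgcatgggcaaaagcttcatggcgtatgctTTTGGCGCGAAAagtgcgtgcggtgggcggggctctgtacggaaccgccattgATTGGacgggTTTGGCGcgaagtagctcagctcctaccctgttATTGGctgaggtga
Mcm5, chr8:75109359-75109508, plus strand: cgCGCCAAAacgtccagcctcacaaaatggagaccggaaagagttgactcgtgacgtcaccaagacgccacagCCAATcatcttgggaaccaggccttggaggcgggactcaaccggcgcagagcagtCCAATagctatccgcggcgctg
Rrm1, chr7:102441545-102441694, plus strand: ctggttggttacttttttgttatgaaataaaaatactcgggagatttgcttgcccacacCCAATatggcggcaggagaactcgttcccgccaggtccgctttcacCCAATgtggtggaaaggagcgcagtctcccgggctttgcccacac
Pcna, chr2:132253181-132253330, minus strand: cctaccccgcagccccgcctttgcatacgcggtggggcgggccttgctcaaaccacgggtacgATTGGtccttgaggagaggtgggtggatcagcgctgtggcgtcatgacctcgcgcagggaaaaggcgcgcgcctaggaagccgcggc

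Mki67, Top2a, Cdk1 and Kif11 each carried a CHR match in this stretch, and Mcm6, Mcm5, Rrm1 and Pcna did not. Mcm6 held 3 E2F matches, a pair of which overlap. In the window from 250 bases before to 50 after the start, promoters were listed for 21 of the 24 mitosis genes, and 16 of those 21 promoters (76.2%) held a CHR. The same 16 also held a CCAAT box, and 7.52% of all promoters held both. Of 13 promoters of 12 replication genes, 2 (15.4%) held a CHR, against 19.2% of all 32851 promoters. The E2F motif was found in 6 of the 13 replication promoters (46.2%) and 5 of the 21 mitosis promoters (23.8%), against 5.58% of all promoters. The CCAAT box was frequent in both groups, in 18 of the 21 mitosis promoters (85.7%) and 9 of the 13 replication promoters (69.2%). Of all promoters 37.4% held it. A match is a description of letters, and a missing match says nothing of which factor binds. No entry was used for Foxm1, Tpx2, Kif20a, Mcm4, Gins2, Aurkb, Ccnd2, Ccne2 and Ccna2.

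Between genotypes, mRNA of the mitosis genes was higher in sum in both Csnk2b-deficient libraries, while the sum of the replication genes was nearly level and its parts were not. Mitosis genes summed to 314 CPM in WT spleen, 412 CPM in Csnk2b-deficient spleen, 356 CPM in WT lymph node and 655 CPM in Csnk2b-deficient lymph node. Replication genes summed to 719, 728, 1460 and 1510 CPM in the same order. The sums came from 1456 to 2989 reads for mitosis and 4206 to 6883 reads for replication. CPM here are scaled by TMM, edgeR's correction for library composition. For mitosis the Csnk2b-deficient to WT ratio was 1.31 in spleen (95% interval for counting error only, 1.24 to 1.39) and 1.84 in lymph node (1.73 to 1.96). For replication it was 1.01 (0.971 to 1.05) in spleen and 1.04 (1.00 to 1.07) in lymph node. Its 10 licensing and fork genes summed to 624 and 616 CPM in spleen and to 1130 and 1050 CPM in lymph node, a lymph node ratio of 0.934 (0.897 to 0.973). Its 4 nucleotide supply genes summed to 95.8 and 111 CPM in spleen and to 328 and 455 CPM in lymph node, ratios of 1.16 (1.05 to 1.29) and 1.39 (1.29 to 1.49). These intervals cover the counting of reads and not the spread between animals, which 1 library per genotype and tissue cannot give.

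Dividing one sum by the other removes the library size. There were 0.437 mitosis reads per replication read in WT spleen (0.417 to 0.458), 0.567 in Csnk2b-deficient spleen (0.539 to 0.596), 0.244 in WT lymph node (0.231 to 0.259) and 0.434 in Csnk2b-deficient lymph node (0.416 to 0.453). The ratio was thus higher with Csnk2b deficiency inside each tissue, 1.30-fold in spleen (1.21 to 1.39) and 1.78-fold in lymph node (1.65 to 1.91). Across tissues the groups overlapped, since WT spleen and Csnk2b-deficient lymph node had nearly the same ratio. With the 19 mitosis genes that had reads in every library, a choice made after seeing the zeros, their sum was 1.32-fold (1.25 to 1.41) and 1.7-fold (1.59 to 1.81) of WT. Without Mki67 and Top2a, the mitosis genes with the most reads, the other 22 gave 1.28-fold (1.18 to 1.39) and 1.85-fold (1.71 to 1.99).

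**Figure D1:**
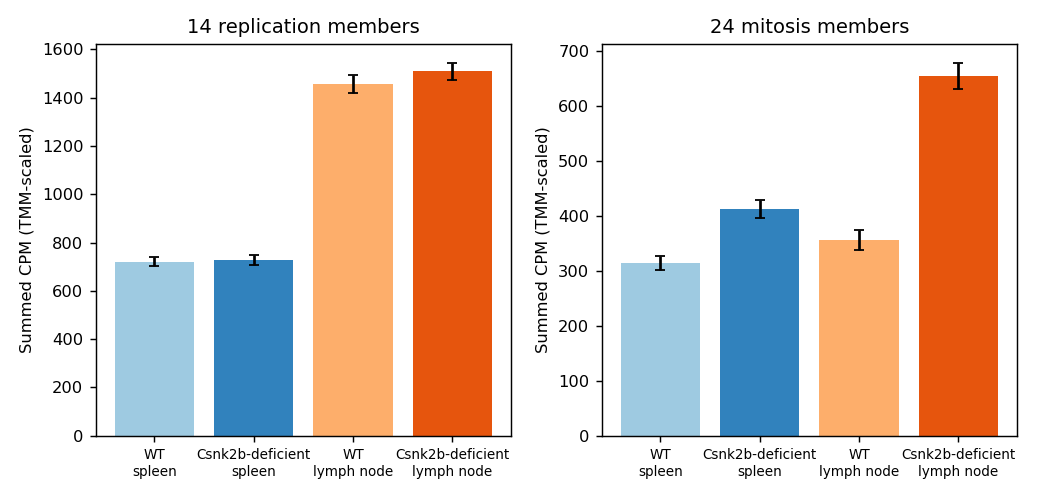
Summed TMM-scaled CPM of the 14 replication genes (left) and the 24 mitosis genes (right), 1 bar per library, with 95% intervals for counting error only. Mitosis genes sum to 314 and 412 CPM in WT and Csnk2b-deficient spleen and to 356 and 655 CPM in lymph node, while replication genes sum to 719 and 728 CPM and to 1460 and 1510 CPM.

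No single gene of the 45 passed the genotype test. By edgeR's quasi-likelihood test with tissue as a term, 0 were called higher, where 0.126% of all 11113 genes were (14 genes), and 0 were called lower, where 0.018% were (2 genes). The smallest adjusted p of any of the 45 was 0.89. At an unadjusted p under 0.05, 4 were higher (Mki67, Top2a, Birc5 and Kif23, all mitosis genes) and 0 lower, against 4.88% of all genes in either direction. DESeq2 and limma-voom also called 0 of the 45, with 5 and 6 at an unadjusted p under 0.05. Of all genes, 4.35% and 6.76% had such a p by these tools. In an edgeR fit without the tissue term, 0 of the 45 and 0.261% of all genes did. The fit had 1 residual degree of freedom.

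The fitted log2 fold changes of the 24 mitosis genes had a median of 0.93, and 21 of them were above 0. The replication median was 0.02, with 7 of 14 above 0, and that of all genes tested was 0.01. Within spleen the medians were 0.39 for mitosis, -0.04 for replication and -0.02 for all genes. In lymph node they were 1.42, 0.22 and 0.03. With the genes at 0 in WT lymph node set to a floor of 3 reads, the mitosis median there was 1.27, and without them it was 1.04. Of the 24 mitosis genes 18 were higher in both tissues, 0 lower in both and 6 mixed. Of the 14 replication genes 4 were higher in both, 4 lower in both and 6 mixed, and among all 11113 genes 3061 were higher in both and 3241 lower in both.

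**Figure D2:**
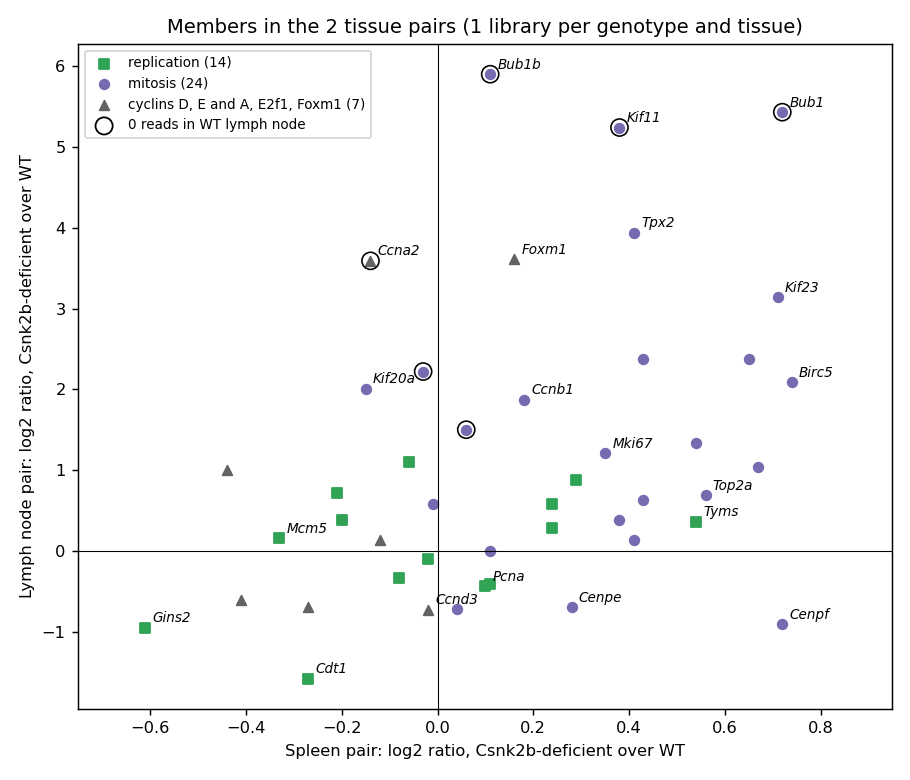
Log2 ratio of Csnk2b-deficient to WT in lymph node (vertical axis) against that in spleen (horizontal axis), 1 point per gene, with marker shape and colour for the gene group and rings for genes at 0 reads in WT lymph node. Mitosis genes lie from -0.15 to 0.74 in spleen and from -0.91 to 5.90 in lymph node, with 18 of 24 above 0 on both axes, and of the replication genes 4 lie above 0 and 4 below 0 on both.

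By counting intervals, 8 of the 45 genes had a spleen ratio above 1 (13.2% of all genes did) and 3 had one below (15.8%). Mitosis genes were 6 of those 8, namely Mad2l1, Birc5, Mki67, Top2a, Kif23 and Cenpf. Rrm1 and Tyms were the others, and Ccnd2, Mcm5 and Mcm7 were below. In lymph node 26 were above 1 (32.8% of all genes) and 8 below (30.5%). Of those 26, mitosis genes made up 16 and replication genes 7 (Mcm2, Mcm7, Cdc6, Rrm1, Rrm2, Tyms and Tk1). The wide background shares show how often such an interval leaves 1 between single libraries, since it carries counting error alone.

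Among the 10 origin licensing and fork genes, 0 had a spleen interval above 1 and 2 had one below, while in lymph node 3 were above 1 (Mcm2, Mcm7 and Cdc6) and 4 below (Pcna, Mcm3, Mcm6 and Cdt1). Pcna, the sliding clamp of the DNA polymerases, had 1003 reads in WT spleen, 788 in Csnk2b-deficient spleen, 1534 in WT lymph node and 1259 in Csnk2b-deficient lymph node, or 127, 136, 375 and 276 CPM. Its log2 fold change was -0.17 ± 0.22 (SE), with the Csnk2b-deficient library higher in spleen and lower in lymph node. Mcm4, a subunit of the helicase, stood at 94.5, 93.2, 191 and 179 CPM in the same order (-0.06 ± 0.22), so that its genotypes were nearly equal in both tissues. Mcm6, another subunit, stood at 148, 160, 115 and 86.6 CPM (-0.14 ± 0.24).

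The 6 helicase subunits act as 1 ring, and their tissue and genotype ratios differed. Mcm2 was lowest in WT lymph node, with 433, 305, 89 and 215 reads, and its ratio was 0.961 (0.827 to 1.11) in spleen and 2.17 (1.68 to 2.81) in lymph node. Mcm3 had a lymph node ratio of 0.792 (0.699 to 0.897), below 1, while Mcm7 was at 1.31 (1.18 to 1.45). Mcm5 was at 0.797 (0.680 to 0.931) in spleen and 1.12 (0.988 to 1.26) in lymph node. Per kilobase of exon, WT lymph node held 53.2 CPM of Mcm4, 44.5 of Mcm3, 35.2 of Mcm7, 33.8 of Mcm5, 26.3 of Mcm6 and 6.45 of Mcm2. In Csnk2b-deficient lymph node Mcm2 stood at 14 on that scale, close to the 16.3 and 15.7 of spleen.

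Loading factors for that helicase were scarce. Cdc6 had 33, 30, 47 and 98 reads (WT then Csnk2b-deficient spleen, WT then Csnk2b-deficient lymph node) and Cdt1 had 50, 30, 11 and 3. Gins2, a part of the active helicase, had 14, 6, 17 and 9 reads. With so few reads, their log2 fold changes had standard errors of 0.67, 1.20 and 1.38.

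The 4 nucleotide genes had fitted changes above 0, none past the threshold. Rrm1, the large subunit of ribonucleotide reductase, stood at 43.0, 50.7, 144 and 216 CPM (0.42 ± 0.24). Tyms, which makes thymidylate, stood at 13.3, 19.5, 85.3 and 110 CPM (0.45 ± 0.30). In both genes the Csnk2b-deficient library was above WT inside each tissue, and both lymph node libraries were above both spleen libraries. Rrm2, the small subunit of the reductase, stood at 22.2, 26.3, 78.5 and 95.4 CPM (0.26 ± 0.29). Tk1, the thymidine salvage kinase, had 136, 86, 84 and 155 reads, but only 21.9% were placed uniquely (34, 18, 12 and 37 reads).

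**Figure D3:**
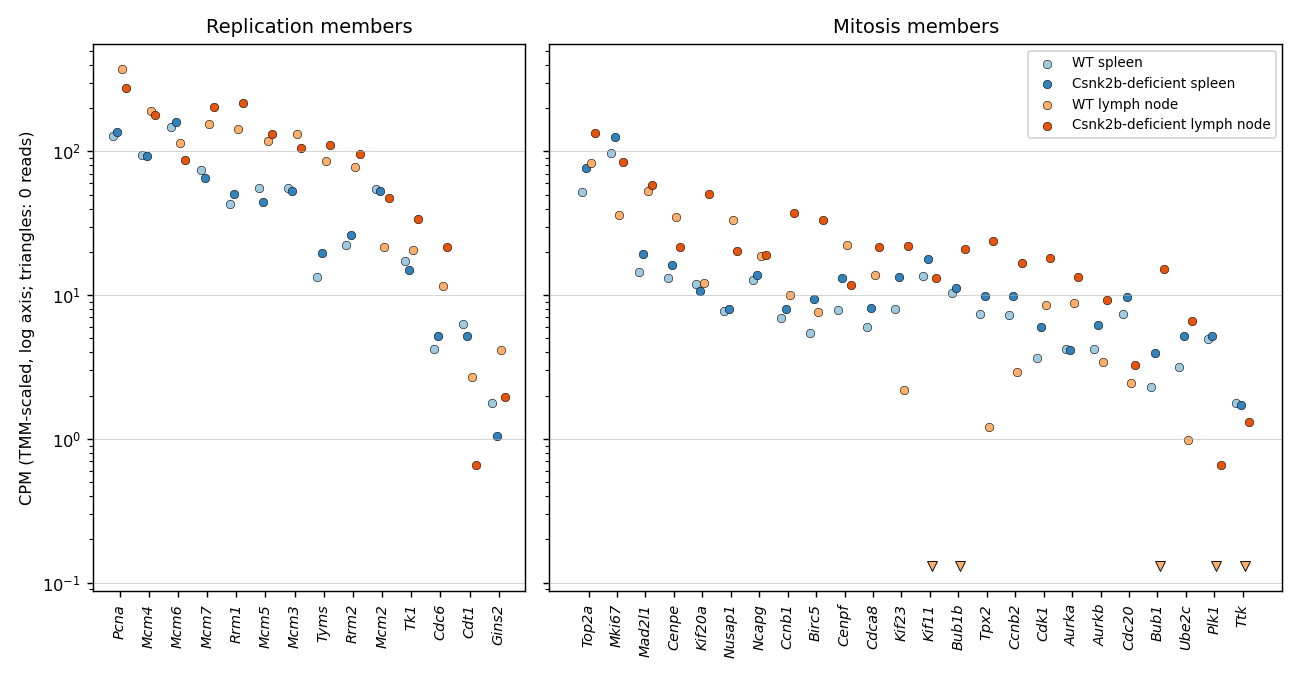
TMM-scaled CPM on a log axis of the 14 replication genes (left) and the 24 mitosis genes (right), 1 point per library, with triangles at the foot for libraries with 0 reads. For Rrm1 and Tyms both lymph node points lie above both spleen points, while Bub1, Bub1b, Kif11, Ttk and Plk1 have no read in WT lymph node.

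Mki67 and Top2a had the most reads of the 24 mitosis genes. Mki67 encodes the Ki-67 protein that coats mitotic chromosomes and marks cycling cells (chr7:142881471-142908062, mm9). Its reads were 772 in WT spleen, 722 in Csnk2b-deficient spleen, 148 in WT lymph node and 384 in Csnk2b-deficient lymph node, or 97.9, 125, 36.2 and 84.2 CPM. The log2 fold change was 0.77 ± 0.28 (adjusted p = 0.89 by edgeR), and the ratio was 1.28 (1.15 to 1.41) in spleen and 2.33 (1.92 to 2.83) in lymph node. Csnk2b-deficient lymph node remained under WT spleen, so the genotypes overlap across tissues. Top2a, the topoisomerase that untangles sister chromatids (chr11:98854257-98885503, mm9), stood at 51.9, 76.6, 82.6 and 134 CPM (0.63 ± 0.25, edgeR adjusted p = 0.89). Its ratio was nearly the same in both tissues, 1.48 (1.29 to 1.69) and 1.62 (1.41 to 1.85).

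Birc5 and Kif23 act at the end of mitosis. Birc5 encodes survivin of the chromosomal passenger complex and had 43, 54, 31 and 152 reads, or 5.45, 9.34, 7.58 and 33.3 CPM (1.46 ± 0.61, edgeR adjusted p = 0.89). Kif23, a motor of the central spindle, had 63, 77, 9 and 101 reads, or 7.99, 13.3, 2.20 and 22.1 CPM (1.92 ± 0.79, edgeR adjusted p = 0.89). For both genes each Csnk2b-deficient library was above both WT libraries. The share of all genes with that order is not given, so it cannot be read as particular to these genes. Over the 12 alternative fits, the adjusted p of Mki67, Top2a, Birc5 and Kif23 ran from 0.357 to 1.00.

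The B-type cyclins and their kinase partner were also higher in Csnk2b-deficient lymph node. Ccnb1 stood at 6.98, 7.96, 10 and 37.5 CPM (1.06 ± 0.60), with 48.9% of its reads placed uniquely. Ccnb2 stood at 7.23, 9.86, 2.93 and 16.7 CPM (1.42 ± 0.82). Cdk1, the kinase they activate, had 29, 35, 35 and 82 reads (0.90 ± 0.73). Tpx2, which activates Aurora A on the spindle, had 58, 57, 5 and 109 reads. Kif20a, a motor of cytokinesis, had 94, 62, 50 and 229. Mad2l1, of the spindle checkpoint, stood at 14.5, 19.4, 52.8 and 58.1 CPM (0.28 ± 0.35), with tissues further apart than genotypes.

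In WT lymph node 5 of the 24 mitosis genes had no read (20.8%), against 0 of the 14 replication genes, and Ccna2 was the sixth gene at 0. That contrast was not matched for abundance. In WT spleen the replication genes had a median of 13.4 CPM per kilobase of exon and the mitosis genes 1.75. Of the 46 other replication genes described below, 4 (8.7%) had no read in WT lymph node. Bub1, a checkpoint kinase, had 18, 23, 0 and 69 reads, at least 20.6-fold higher in Csnk2b-deficient than WT lymph node against the floor of 3 reads in that library (the exact counting interval started at 16.3). Bub1b, its partner in the checkpoint, had 82, 65, 0 and 96 reads, at least 28.7-fold higher (interval from 22.9). Kif11, the motor that separates spindle poles, had 107, 103, 0 and 60 reads, at least 17.9-fold higher (interval from 14.1). In spleen all 5 had reads in both libraries, and Bub1, Bub1b and Kif11 had ratios of 1.74 (0.900 to 3.43), 1.08 (0.768 to 1.52) and 1.31 (0.992 to 1.74). Ttk, a checkpoint kinase, had 14, 10, 0 and 6 reads, at least 1.79-fold higher (interval from 1.06). Plk1, the polo kinase, had 39, 30, 0 and 3 reads, too few in lymph node for a fold. Fitted log2 fold changes were 3.06 ± 1.62 for Bub1, 2.48 ± 1.47 for Bub1b, 2.32 ± 1.25 for Kif11, 1.30 ± 1.91 for Ttk and 0.91 ± 1.51 for Plk1. Each fit takes 1 genotype difference for both tissues, although for Bub1, Bub1b and Kif11 the ratios in spleen and lymph node lay far apart. The log2 ratios within lymph node of genes at 0 in WT depend on the prior count of 2.

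Cenpe, Cenpf and Nusap1 ran against the other mitosis genes in lymph node. Cenpf, a kinetochore protein, had 62, 76, 92 and 54 reads, a ratio of 1.67 (1.18 to 2.38) in spleen and 0.526 (0.369 to 0.745) in lymph node. Cenpe, a kinetochore motor, stood at 13.2, 16.1, 35.2 and 21.5 CPM (-0.22 ± 0.46). Nusap1, which binds spindle microtubules, had 61, 46, 137 and 92 reads. All 3 had more reads in WT lymph node than in WT spleen, whereas Bub1, Bub1b and Kif11 had 0 in WT lymph node.

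The remaining mitosis genes were Aurka, Aurkb, Cdc20, Ube2c, Cdca8 and Ncapg, at 4 to 101 reads a library. Of these, Aurkb, Ube2c and Cdca8 had a lymph node interval above 1, with ratios of 2.69, 6.73 and 1.56, and none of the 6 had one below 1.

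The 5 cyclins of G1 and S phase were all below 0 in spleen (median log2 ratio -0.14, only Ccnd2 with an interval below 1), and in lymph node 3 were above 0 and 2 below. Ccnd2, a D-type cyclin, was the most abundant of the 45 and made up 25.1% to 45% of all their reads. It stood at 461, 425, 1580 and 1730 CPM (0.01 ± 0.17, adjusted p = 0.995 by edgeR). Ccnd3, another D-type cyclin of lymphocytes, stood at 96.1, 94.6, 94.1 and 56.6 CPM (-0.37 ± 0.27), with its lowest level in Csnk2b-deficient lymph node. Ccnd3 also had more reads outside exons (6093) than in them (1948). Ccne1, a partner of CDK2 in S phase entry, had 86, 46, 10 and 24 reads (0.27 ± 0.89), and Ccne2 had 19, 10, 46 and 33. Ccna2, the S and G2 phase cyclin, had 71, 47, 0 and 18 reads (1.59 ± 1.42), at least 5.38-fold higher in Csnk2b-deficient lymph node (interval from 3.94).

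E2f1 had 35, 21, 37 and 25 reads, fewer in each Csnk2b-deficient library (-0.51 ± 0.93). Foxm1, the activator of late cell cycle genes, had 78, 64, 1 and 32 reads (1.77 ± 1.16). In spleen its ratio was 1.12 (0.791 to 1.58), and in lymph node, against 1 read, it was 28.7 (4.79 to 1170). Foxm1 thus had the pattern of Bub1b and Kif11: similar in both spleen libraries and nearly absent from WT lymph node.

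More of the 45 genes differed between tissues than between genotypes, and the same held over all 11113 genes. By tissue 2586 of all genes were called higher in lymph node and 2464 lower, against 14 and 2 by genotype. By the same edgeR fit, 12 of the 45 genes rose in lymph node over spleen, where 23.3% of all genes did, and Mki67 alone fell, where 22.2% did. Of the 14 replication genes 8 rose and 0 fell, and of the 24 mitosis genes 3 rose (Mad2l1, Top2a and Nusap1) and 1 fell. Kit and tissue may coincide, so these are differences between the libraries of each tissue.

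Tyms rose most, by 2.58 ± 0.31 on the log2 scale (edgeR adjusted p = 5.73e-05). Rrm1 rose by 1.92 ± 0.24 (8.79e-05), Ccnd2 by 1.90 ± 0.17 (1.05e-05) and Rrm2 by 1.84 ± 0.30 (0.000496). Of the helicase subunits Mcm7 rose by 1.35, Mcm5 by 1.32, Mcm3 by 1.12 and Mcm4 by 0.98, while Mcm2 and Mcm6 were at -0.74 ± 0.38 and -0.63 ± 0.24 and were not called. Pcna rose by 1.29 ± 0.22. Mki67 fell by 0.99 ± 0.29 (edgeR adjusted p = 0.0151), whereas Top2a rose by 0.74 ± 0.25 (0.0313). These 2 standard proliferation markers thus went opposite ways between tissues while both had fitted genotype changes above 0.

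Within WT the median lymph node to spleen log2 ratio was 1.08 for replication genes and -0.12 for mitosis genes. Within Csnk2b-deficient libraries the medians were 1.09 and 0.77, and for all genes they were -0.13 and -0.09. The replication medians were nearly equal in both genotypes and the mitosis medians were not. That difference rests on 1 library per group and was not tested.

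**Figure D4:**
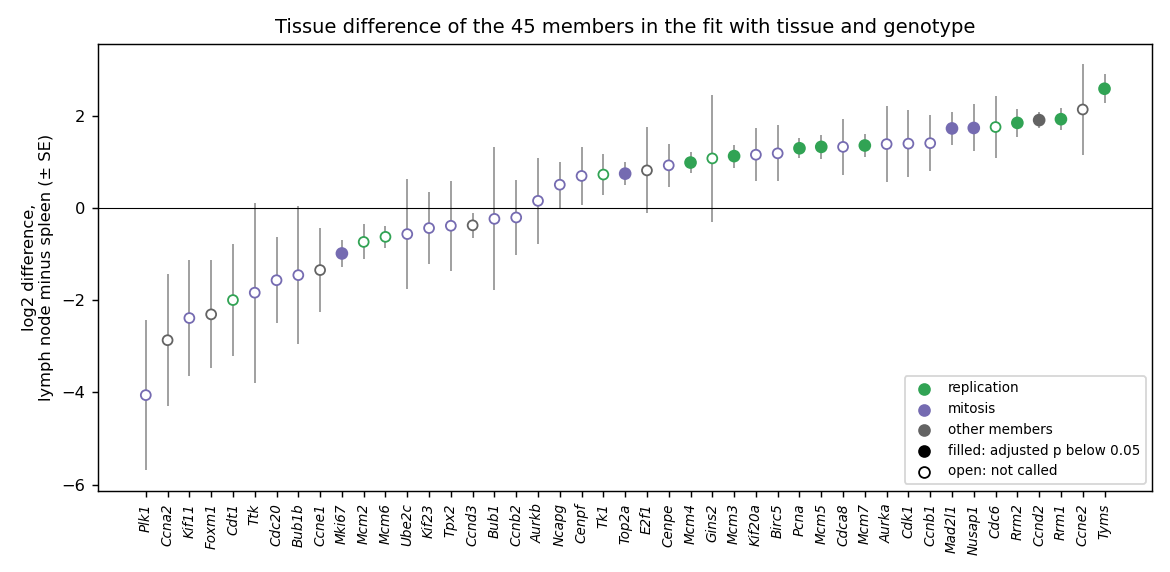
Fitted log2 difference of lymph node from spleen for the 45 genes, ordered by size, with bars for the standard error, colours for the gene group and filled points for adjusted p below 0.05 by edgeR. Of the replication genes 8 of 14 are called higher in lymph node, while among mitosis genes 3 are called higher and Mki67 is called lower.

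Other genes of the same pathway, from lists that do not hold the 45, gave 0 calls in either direction by edgeR. The 46 other replication genes had a median log2 fold change of 0.11, with 1 at an unadjusted p under 0.05. The 57 tested of 61 other mitosis genes had a median of 0.51, with 44 above 0, 13 below and 2 at such a p. Their medians over all 61 were 0.15 in spleen and 0.77 in lymph node, and 14 of the 61 (23.0%) had no read in WT lymph node. Their sum did not show the rise of the 24 genes in spleen: it was 2390 CPM in WT and 2300 CPM in Csnk2b-deficient spleen, a ratio of 0.963 (0.942 to 0.985), and 2960 and 3260 CPM in lymph node, a ratio of 1.10 (1.07 to 1.13). Smc4 and Tubb5 had the most reads of that list, and without them, a choice made after seeing the values, the ratios were 1.13 (1.09 to 1.17) and 1.29 (1.25 to 1.33). The other G1/S regulators (23 tested) and the inhibitors and quiescence genes (17 tested) had medians of 0.00 and 0.01. Genes without a read in WT lymph node were also found outside the mitosis list. They were 4 of the 46 other replication genes (8.7%) and 3 of the 24 other G1/S regulators (12.5%). Dlgap5, a spindle protein, had 60, 63, 11 and 120 reads (1.81 ± 0.80, edgeR adjusted p = 0.89), low in WT lymph node as Kif23 was. Cdc25b, a phosphatase that activates Cdk1, stood at 118, 162, 96.3 and 165 CPM (0.62 ± 0.23, edgeR adjusted p = 0.89). Cdk6, a partner of the D-type cyclins, stood at 24.2, 48.6, 23.7 and 44.9 CPM (0.96 ± 0.35, edgeR adjusted p = 0.89), and Rbl2, a pocket protein of DREAM, at 227, 295, 69.7 and 211 CPM (0.97 ± 0.28, edgeR adjusted p = 0.525). Cdc7, the kinase that fires origins, had 198, 173, 77 and 275 reads (0.95 ± 0.43, edgeR adjusted p = 0.89). Rbl2 had the highest mean CPM of the other G1/S regulators, but only 52.4% of its reads were placed uniquely (36.7% for Rb1). The others among the 3 highest of each list had smaller fitted changes: Rpa1 was at 0.25 ± 0.22, Orc3 at 0.31 ± 0.23, Dnmt1 at -0.38 ± 0.26, Smc4 at -0.35 ± 0.17, Tubb5 at 0.12 ± 0.18, Hjurp at -0.13 ± 0.22, Cdk4 at -0.14 ± 0.21, Rb1 at 0.00 ± 0.23, Btg1 at -0.15 ± 0.19, Btg2 at 0.14 ± 0.20 and Mxd4 at 0.06 ± 0.20.

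Some of the 45 share reads with copies or neighbours. Beside Tk1 and Ccnb1, unique placement was 55.2% for Pcna, 66.7% for Ccne2, 69.4% for Kif20a, 71.9% for Ccnd3 and 73.9% for Gins2. Among the overlapping gene pairs were Ccnd3 with Bysl, Ccna2 with Exosc9, Mcm7 with Cops6 and Ap4m1, Tk1 with Afmid, Cdc20 with Elovl1 and Kif20a with Cdc23, and their values are uncertain to that extent. Mki67, Birc5 and Kif23 had 96.7%, 99.6% and 100% unique reads and no overlapping neighbour with exons.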

How the data were processed

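Sorted Tregs gave 4 RNA-seq libraries read on a MiSeq. The authors deposited exon read counts per gene, with total and unique counts, per the file headers; the submitters' processing notes name CASAVA 1.8.2 and mm9, and aligner and annotation: not given in the sources used here. Deposited RPKM were not used. Total exon counts were filtered with filterByExpr by genotype (11113 genes), scaled by TMM and fitted in edgeR 4.0.16 (R 4.3.3) with a robust quasi-likelihood test, tissue plus genotype, Benjamini-Hochberg adjusted over all genes. Each SE was derived by dividing the fitted change by the root of its F statistic. Log2 ratios within a tissue used a prior count of 2, and ratios have exact 95% intervals for counting error (on the log scale for mitosis over replication). The floor was 3 reads. Same-numbered libraries share a tissue per the labels, and deviations of libraries numbered 1 correlated at 0.783 across genes. The fit code was also run on simulated counts with known changes. That outcome is not reported here and is no support for the results above. Alternatives used DESeq2 1.42.0, limma 3.58.1, other scalings, filters, unique reads and left-out libraries. Full values are given for the 3 most abundant genes of each role, those with unadjusted p below 0.05 and those at 0 in a library; other genes were singled out after their values were seen. The genes and lists were chosen with earlier results of these data known.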

Additional observations from a re-analysis of the deposited data

Results flagged for a closer look

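For 3 of the 45 genes the counting intervals of the spleen and lymph node ratios lay on opposite sides of 1. The share of all genes with such opposite intervals is not given, so this count cannot be read as particular to the 45. With 1 library per genotype and tissue, the difference between tissues was not tested. Ccnd2 had a log2 ratio of 0.13 in lymph node and -0.12 in spleen, Mcm7 0.38 and -0.20, and Cenpf -0.91 and 0.72. Reads outside annotated exons were used by no comparison above. Scaled to all reads in genes, they had a lymph node interval above 1 for 9 of the 45 genes. For 3 it was below 1 (Ccnd2, Ccne1 and Pcna). The share over all genes is not given for such reads, so these counts cannot be read as particular to the 45. Counts in WT lymph node were small, with 0 such reads for Mcm3, Rrm1 and Aurka. The 9 were Mcm3, Mcm6, Mcm7, Rrm1, Tyms, Aurka, Bub1b, Mki67 and Kif11, and for Mki67 and Kif11 the spleen interval was above 1 too. Mki67 had 27, 34, 2 and 24 such reads in WT spleen, Csnk2b-deficient spleen, WT lymph node and Csnk2b-deficient lymph node, a lymph node ratio of 10.4 (95% counting interval 2.59 to 91.2). Kif11 had 61, 74, 4 and 110, a ratio of 23.9 (9.09 to 89.4), and so had a few reads outside exons in the library where it had 0 exon reads. Their spleen ratios were 1.72 (1.01 to 2.96) and 1.65 (1.16 to 2.36).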

How the results depend on the processing

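All alternatives called 0 of the 45 genes by genotype. Over all genes, those called higher (14) and lower (2) numbered 4 and 0 with median-of-ratios scaling, 79 and 32 with no filter, 7 and 0 with unique reads, 35 and 15 by DESeq2, 39 and 21 by limma-voom and 0 and 0 with no replicate block. Upper-quartile scaling and a filter at 5 CPM each called 1 lower. Leaving out 1 library gave 0 to 1 higher and 0 lower. Such a fit has no tissue term, so tissue enters its genotype difference by construction. In the tissue comparison it gave 6 to 26 of the 45 genes higher and 0 to 15 lower, and 1255 to 3698 and 931 to 4295 of all genes. Genes of the 45 lower in lymph node numbered 2 with upper-quartile scaling, 3 with no filter, 2 by DESeq2 and 3 by limma-voom; the cause was not tested. The median over all genes was 0.06 with no filter and -0.12 to 0.15 with a library left out, and the replication median then ran from -0.79 to 0.62. The lymph node rise of mitosis over replication reads was 1.57 without Pcna and Mki67, 1.98 per kilobase and 1.64 over genes with a read in every library, the last chosen after seeing the data. Ccne1 was -0.17 by limma-voom and -0.02 with no replicate block. With a library or pair left out, 17 of 24 named genes changed sign: Ccnd2 -1.22 to 1.25, Ccnd3 -0.76 to 0.03, Ccne1 -0.69 to 1.45, Foxm1 -0.10 to 5.09, E2f1 -0.97 to 0.06, Pcna -0.84 to 0.72, Mcm4 -0.57 to 0.55, Mcm6 -0.62 to 0.31, Rrm1 -0.84 to 1.66, Tyms -1.28 to 2.31, Rrm2 -0.89 to 1.48, Mad2l1 -0.75 to 1.45, Ccnb1 -0.05 to 2.14, Cenpe -0.88 to 0.54, Ccna2 -0.55 to 7.88, Plk1 -1.92 to 6.85 and Ttk -0.19 to 5.91. Few reads limit the rarer genes: 16 of the 45 had under 20 in WT lymph node, against 3 to 6 in the other libraries. Csnk2b-deficient spleen had nearly the same total of exon reads (4877882 against 4737814) and 3 such genes. Its library size after TMM scaling was larger than that of WT lymph node, 5781253.5 against 4091386.5. Its 10 most abundant genes held 4.3% of exon reads, against 9.0% in WT lymph node. The cause of the low counts was not tested.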
